A study of Mus musculus with 6 samples.

Results

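Oxidative phosphorylation runs on 5 protein complexes of the inner mitochondrial membrane, and the transcripts described here are those of their nuclear-encoded subunits. Genes were taken by symbol (the Nduf, Sdh, Uqcr, Cox4 to Cox8 and Atp5 families) and kept at 10 CPM or more over all cells analysed, where CPM is the count of UMIs (unique molecular identifiers, each marking a captured transcript molecule) scaled to a common total. Of 31055 features, 82 matched by symbol and 74 were kept, 35 of complex I, 4 of complex II, 8 of complex III, 12 of complex IV and 15 of complex V. The 8 left out were Atp5s, Cox6b2, Cox8b, Cox6a2, Cox7a1, Cox7b2, Cox8c and a second Atp5o entry, the highest of which, Atp5s, stood at 8.17 CPM. The lowest members above the minimum were Ndufa9 at 38.0 and Ndufs1 at 51.0 CPM. Cox4i1 and Cox4i2 fell outside the symbol rule, as did Ndufab1, Cyc1, Cycs, Cyct, Usmg5 and Atpif1, and these were kept as a separate list.

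Complexes I and II pass electrons from NADH and succinate to ubiquinone, complex III hands them to cytochrome c, complex IV reduces oxygen, and complex V uses the proton gradient to make ATP. Most subunits are encoded in the nucleus, whereas a core set of complexes I, III, IV and V is encoded by mitochondrial DNA. Several complex IV subunits exist as tissue isoforms, among them heart and skeletal muscle forms of Cox6a, Cox7a and Cox8, the Cox4i2 form of Cox4, and Ndufa4l2, a paralog of Ndufa4 known as a hypoxia-responsive gene.

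The cells came from the aortic root to the arch of 6 female mice aged 16 weeks on a 129 background, 4 control mice (CTL, Tgfbr1+/+) and 2 with Loeys-Dietz syndrome (LDS, Tgfbr1M318R/+). In 2 of the CTL mice a conditional EGFP-L10a tracer was combined with a Cre for the cardiac neural crest (CNC), which the series text places behind a Wnt2 promoter, and the other CTL mice were not labelled as traced. Live cells were sorted and profiled by droplet sequencing of transcript 3' ends. The deposited matrix separates 6 libraries by barcode ending, but no source used here ties an ending to a mouse, so neither genotype nor tracing was compared. Libraries were taken as repeats of the tissue and no p-value was computed. A gene was called higher or lower when its log2 ratio of CPM had 1 sign in all 6 libraries and a median of at least 0.5 in size.

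After quality filters 24972 of 30716 barcodes remained, 1863 to 6395 per library, with 18218282 to 38105145 UMIs. Median depth was 5572 to 7530 UMIs per cell in libraries 1, 3, 4 and 5 but 9838 and 9615 in libraries 2 and 6, which stood apart. Between 7.85% and 32.5% of the barcodes of a library also occurred in another library. After the filters, 11 to 36 retained cells per library shared a barcode with another retained cell. Counting removed barcodes of other libraries as well, 27 to 800 retained cells per library shared theirs, with 800 of 3225 in library 1. Over all barcodes the sharing lay mostly among libraries 1, 3, 4 and 5 and between 2 and 6. Any pair across those sets shared at most 8. The cells were grouped, without using the members for clustering, into 10375 vascular smooth muscle cell (VSMC)-like, 13485 fibroblast-like, 568 endothelial-like and 440 leukocyte-like cells. The 7 VSMC markers summed to a median of 65783 CPM in VSMC-like cells and 1949 CPM in fibroblast-like cells.

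Promoters of nuclear subunit genes are known for sites of NRF1, ETS-family factors and the ERR receptors. RefSeq promoters (GRCm38.p6, 250 bases before to 50 after the start) were given for 62 of the 74 members. The NRF1 letters (GCGCA and GCGC parted by any base), on either strand, stood in 17 members (27.4%) and in 5.19% of 27025 genes. CCGGAAG (ETS) stood in 16 members (25.8%) and in 9.93% of genes, and TCAAGGTCA (ERR) in 2 members (3.23%) and 0.466% of genes. These are matches of letters and not measured binding. The 250 bases before the start are shown, in the direction of transcription, for 4 members on which the results turn, with matches in capitals. Ndufb7 (chr8:83566508-83566757, plus strand) had the largest VSMC-like to fibroblast-like ratio. Cox6a1 (chr5:115348959-115349208, minus strand) had the largest such ratio in complex IV and is the general form of a subunit that also has a muscle form. Sdhd (chr9:50603850-50604099, minus strand) carries both NRF1 and ETS letters in these bases and had a ratio of 0.11. It is also 1 of the 2 members with ERR letters, which are not among the matches in the bases shown. Ndufa4 (chr6:11907451-11907700, minus strand), the paralog of Ndufa4l2, carries none of the 3 motifs in these bases.
Ndufb7: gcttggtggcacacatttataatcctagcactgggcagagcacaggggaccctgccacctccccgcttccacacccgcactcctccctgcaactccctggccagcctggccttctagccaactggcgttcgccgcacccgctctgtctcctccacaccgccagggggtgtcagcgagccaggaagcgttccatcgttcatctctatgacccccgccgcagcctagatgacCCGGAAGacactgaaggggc
Cox6a1: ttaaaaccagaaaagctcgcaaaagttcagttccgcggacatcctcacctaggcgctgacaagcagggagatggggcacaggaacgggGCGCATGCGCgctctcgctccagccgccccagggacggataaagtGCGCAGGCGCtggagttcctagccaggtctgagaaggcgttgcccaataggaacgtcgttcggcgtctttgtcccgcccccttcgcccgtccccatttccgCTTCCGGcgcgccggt
Sdhd: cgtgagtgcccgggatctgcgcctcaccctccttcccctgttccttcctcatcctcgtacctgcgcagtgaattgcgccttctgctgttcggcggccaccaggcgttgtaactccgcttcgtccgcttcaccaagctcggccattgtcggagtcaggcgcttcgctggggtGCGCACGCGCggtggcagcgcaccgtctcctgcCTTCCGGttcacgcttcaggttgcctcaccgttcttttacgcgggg
Ndufa4: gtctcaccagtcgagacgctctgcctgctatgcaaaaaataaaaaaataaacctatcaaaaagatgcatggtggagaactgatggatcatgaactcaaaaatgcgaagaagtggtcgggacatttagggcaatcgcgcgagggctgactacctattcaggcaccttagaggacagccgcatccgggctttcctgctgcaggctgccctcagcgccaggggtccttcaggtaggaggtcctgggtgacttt

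The 74 members together took a larger share of all UMIs in VSMC-like cells than in the other classes. In libraries 1 to 6 that share was 2.14, 2.58, 2.25, 2.22, 2.08 and 2.34% in VSMC-like cells. In fibroblast-like cells it was 1.5, 1.88, 1.77, 1.5, 1.46 and 1.78%. No VSMC-like value of a library fell within the fibroblast-like range, and library 2 was the highest in both classes. This holds for the class as a whole and not for each finer subcluster of it, described below. With libraries summed, subcluster 2 (1238 cells) held 1.70% and subcluster 3 (985 cells) 1.65%, within the fibroblast-like range. Their median depths were 4990 and 4559 UMIs per cell, against 7204 in the VSMC-like class. Endothelial-like cells had a median of 1.80% (1.58 to 2.11) and leukocyte-like cells 1.44% (1.28 to 1.67). Within each library the VSMC-like share exceeded that of all 3 other classes, by a median log2 ratio of 0.49 over fibroblast-like, 0.30 over endothelial-like and 0.69 over leukocyte-like cells. Such a share is relative to all transcripts, so fewer other transcripts and more subunit transcripts cannot be told apart. Cytosolic ribosomal protein transcripts, at a median of 7.99% in VSMC-like and 9.56% in fibroblast-like cells, ran in the other direction.

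**Figure D1:**
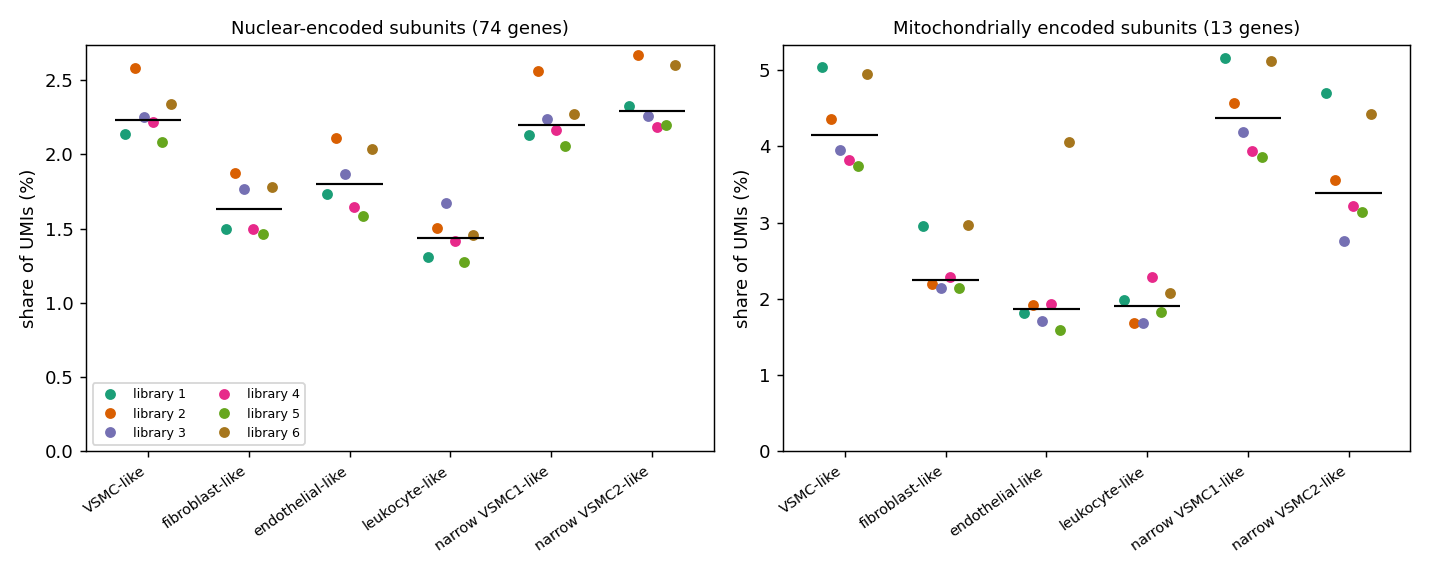
Share of all UMIs (%, vertical axis) taken by the 74 nuclear-encoded members (left) and the 13 mitochondrially encoded subunits (right) in 6 groups of cells, with 1 point per library and a line at the median. The nuclear share in VSMC-like cells lies between 2.08 and 2.58%, above every fibroblast-like value (1.46 to 1.88%).

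The 13 subunits encoded by mitochondrial DNA differed more between the classes than the nuclear ones. Their median share was 4.15% (3.74 to 5.04) in VSMC-like cells and 2.24% (2.14 to 2.97) in fibroblast-like cells. It was 1.87% (1.58 to 4.06) in endothelial-like and 1.90% (1.68 to 2.29) in leukocyte-like cells. The endothelial-like 4.06%, in library 6, lay within the VSMC-like range. The ratio of nuclear to mitochondrial UMIs was accordingly lowest in VSMC-like cells, at a median of 0.563, against 0.669 in fibroblast-like and 0.977 in endothelial-like cells. Of the 13, 12 were called higher in VSMC-like than in fibroblast-like cells, with a median log2 ratio of 0.80. Mitochondrial transcripts also move with cell damage, whose part in this difference was not tested.

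Among the members the level in VSMC-like cells ranged from 10.5 CPM for Ndufa4l2 to 1013 CPM for Cox6c. Counting is by transcript 3' end, so levels are not scaled by length. Complex II was the lowest, with a median of 84.3 CPM over its 4 subunits, and complexes IV and V the highest, at 354 and 368 CPM. Cox6c and Cox8a, small structural subunits of complex IV, lay at medians of 970 and 855 CPM over libraries. Uqcrb, a ubiquinone-binding subunit of complex III, had a median of 794 CPM, and Atp5e, the epsilon subunit of ATP synthase, 687 CPM. In complex I the highest were the accessory subunits Ndufa7 and Ndufa11, at 433 and 421 CPM, and the lowest the core subunit Ndufs1 and Ndufa9, at 58.5 and 41.2 CPM. Sdhb at 130 CPM and Sdhd at 62.8 CPM were the ends of complex II. The other low ends were Uqcrfs1, the Rieske iron-sulfur protein of complex III, at 116 CPM and Atp5o, of the peripheral stalk of ATP synthase, at 163 CPM.

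Compared gene by gene with fibroblast-like cells, 34 of the 74 members were called higher in VSMC-like cells, against 18.2% of all 8181 genes tested. Only Ndufa4l2 was called lower, where 22.5% of all genes were. The median log2 ratio of the members was 0.48 while that of all genes was -0.02, and 66 members were higher in all 6 libraries at any size, as were 34.9% of all genes. By complex, 18 of 35 complex I members were called higher (median 0.51), 6 of 8 in complex III (0.56), 6 of 12 in complex IV (0.51), 3 of 15 in complex V (0.36) and 1 of 4 in complex II (0.14).

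Ndufb7, an accessory subunit of complex I, was at 177, 260, 174, 173, 163 and 247 CPM in VSMC-like cells of libraries 1 to 6. In fibroblast-like cells it was at 78.5, 133, 91.6, 74.6, 70.6 and 110 CPM. The groups did not overlap, and libraries 2 and 6 were the highest in both. Its median log2 ratio of 1.17 (0.93 to 1.21) was the largest of the members. Within complex I, Ndufa12, Ndufa11 and Ndufs6 followed at 0.88, 0.82 and 0.81. Ndufb4 alone in complex I had a median below 0, at -0.24 (-0.38 to -0.17), and was lower in all 6 libraries without reaching the size needed for a call.

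Complex II, which is also the succinate dehydrogenase of the citric acid cycle, was uneven. Sdhc, a membrane anchor, lay between 80.0 and 114 CPM in VSMC-like and between 41.8 and 56.3 CPM in fibroblast-like cells, with no overlap and a log2 ratio of 0.95 (0.62 to 1.18). The catalytic subunit Sdha, the iron-sulfur subunit Sdhb and the other anchor Sdhd had ratios of 0.17, 0.09 and 0.11. Sdhc thus stood apart from the subunits it is assembled with, in level ratio and not in absolute level. In complex III Uqcr11 and Uqcr10, both small subunits, had ratios of 0.71 and 0.63, and Uqcrh, the hinge subunit, 0.21.

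In complex IV Cox6a1 ran from 261 to 363 CPM in VSMC-like and from 152 to 212 CPM in fibroblast-like cells, a log2 ratio of 0.78 (0.46 to 0.79) without overlap. Ndufa4, now counted with complex IV, had a ratio of 0.75 and Cox7c 0.70. Cox7a2l, known as a factor in joining complexes III and IV, had a ratio of 0.05 (-0.12 to 0.27). In complex V, Atp5k, a small membrane subunit, had the largest ratio, 0.76, and Atp5f1, of the peripheral stalk, had the lowest at -0.07.

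**Figure D2:**
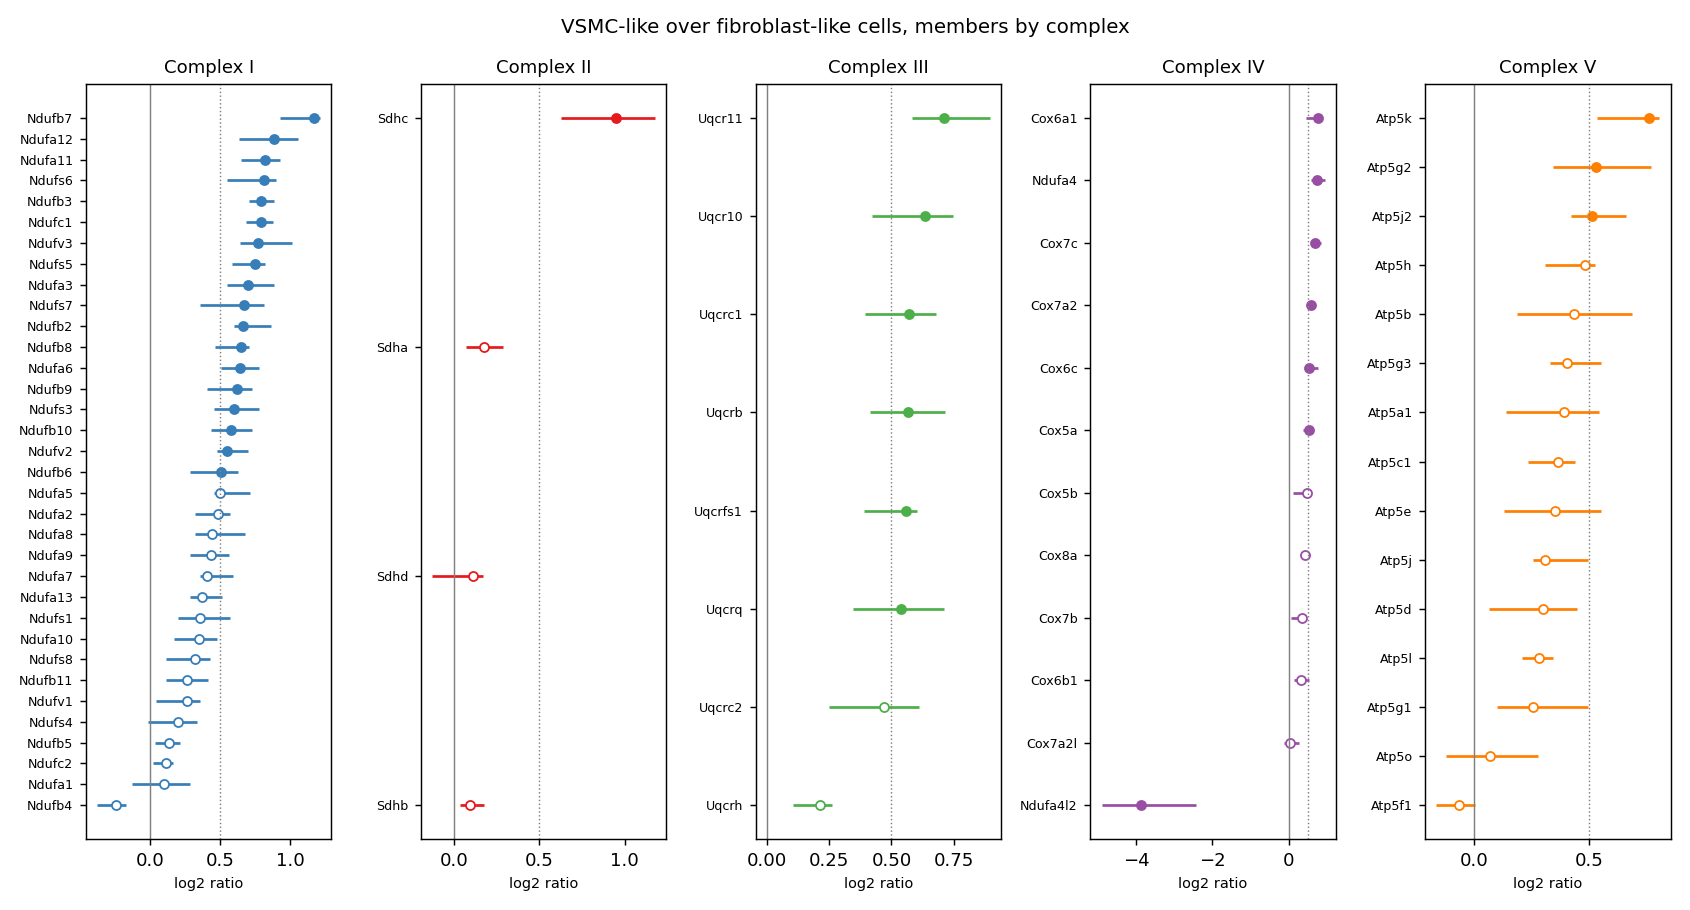
Log2 ratio of CPM, VSMC-like over fibroblast-like (horizontal axis; the scale differs between panels), for the members shown, by complex; points are medians and lines the range over 6 libraries. Filled points are called; the dotted line marks 0.5. Ndufa4l2 lies at -3.87, and the others shown lie between -0.24 and 1.17.

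Genes that work with the complexes did not all move alike, and their counts are read against the 18.2% of all genes called higher and 22.5% called lower. Of 17 glycolysis genes tested, 13 were called higher in VSMC-like than in fibroblast-like cells (median 0.75), and of 17 citric acid cycle genes 6 were (0.37). Of 37 assembly factors tested, 7 were called higher and 1 lower, with a median of 0.18, a share of 18.9% called higher that is near that of all genes. The highest were Higd1a at 1.18 and Cox17, a copper chaperone for complex IV, at 1.09. Among 6 tested regulators of mitochondrial biogenesis none was called higher and 1, the mitochondrial transcription factor Tfam, lower at -0.72. Of 23 genes induced by tissue dissociation, 12 were lower in VSMC-like cells and 1 higher (median -0.76); the part of dissociation in the members' ratios was not tested.

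Against endothelial-like cells, 23 members were called higher in VSMC-like cells where 18.6% of all genes were, and 1 was called lower where 17.4% were. The median over members was 0.30. Complex I held 16 of the 23, led by Ndufa11 at 1.52 (0.93 to 1.63) and Ndufv3 at 1.21 (0.54 to 1.29). Ndufa11 lay between 128 and 223 CPM in endothelial-like and between 370 and 427 CPM in VSMC-like cells, with no overlap. Cox7a2l was the member called lower, at -0.59 (-0.79 to -0.22). Ndufa4l2 had a median of -2.07 but was not called lower, since no endothelial-like cell of library 6 held a UMI of it. The endothelial-like class was small, with 10 cells in library 6, and 14.3% of its cells carried a doublet mark against 4.15% of VSMC-like cells. With TMM scaling 50 members were called higher, where 31.5% of all genes were, and 0 lower, Cox7a2l then lying at -0.22.

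Against leukocyte-like cells, 47 members were called higher and 0 lower, but 39.3% of all genes were called higher and 14.1% lower. The median over members was 0.69 beside 0.45 over all genes, so a large part of the shift was shared with genes at large. Complex I again held most, with 28 of its 35 members called higher and Ndufa11 (1.60) and Ndufb9 (1.5) leading that complex. The largest ratio of any member was that of Ndufa4l2, 2.24 (0.25 to 7.07), which fell to 1.46 without a VSMC-like subcluster of mostly doublet-marked cells and rests on 0 to 2 UMIs per library in leukocyte-like cells. The leukocyte-like class had 35 to 130 cells per library, and 15.5% of its cells carried a doublet mark.

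Ndufa4l2 went the other way from its paralog. In fibroblast-like cells it was at 166, 150, 128, 117, 107 and 201 CPM in libraries 1 to 6. In VSMC-like cells it was at 5.49, 12.2, 11.8, 21.9, 6.16 and 9.02 CPM, with every library far below its own fibroblast-like value. The log2 ratio was -3.87 (-4.90 to -2.42), while that of Ndufa4 was 0.75. At least 1 Ndufa4l2 UMI was found in 37.8% of fibroblast-like, 10.6% of endothelial-like, 2.58% of VSMC-like and 1.59% of leukocyte-like cells, where median depths were 6115, 4684, 7204 and 5622 UMIs. With cells thinned to 3000 UMIs these shares were 27.0, 10.1, 1.51 and 1.06%. Leukocyte-like cells held 7 Ndufa4l2 UMIs in all, 2.43 CPM (95% Poisson interval 0.976 to 5.00), against 10.5 CPM (9.82 to 11.2) in VSMC-like cells. By level the VSMC-like class as a whole was higher than leukocyte-like cells in all 6 libraries, a comparison that rests on those 7 UMIs. The shares of cells with a UMI lay close together. Of the 863 UMIs in VSMC-like cells, 415 lay in a subcluster of 353 cells, 51.8% of them doublet-marked. The level of the narrow VSMC1-like cells, described below, lay within the leukocyte-like interval. Ndufa4l2 made up 21.9% of the UMIs of the Ndufa4 and Ndufa4l2 pair in fibroblast-like cells and 1.27% in VSMC-like cells.

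Over 36 sums (6 groups of cells in 6 libraries) the genes whose level followed Ndufa4l2 most closely were Itih5 (Pearson r = 0.89), Nid1 (0.87), Steap4 (0.87), Fxyd6 (0.86), Serpina3n (0.86), Igfbp5 (0.85), Cygb (0.85), Pgf (0.84), Cd34 (0.84) and Hsd11b1 (0.84). The sums share libraries and depth, so these values are a description.

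The study divided VSMCs into 2 subclusters, VSMC1 and VSMC2, the latter with more Enpep and Notch3 and less Tes and Ptprz1. A pair of splits of the VSMC-like cells were made here, and the members were used for neither. The planned split gave 5319 VSMC1-like and 5039 VSMC2-like cells, and dissociation genes differed strongly between them, 21 of 23 being called higher in VSMC2-like cells (median 1.90). A narrow split, added after that was seen, also left the other listed genes out of the clustering and gave 7717 VSMC1-like and 1724 VSMC2-like cells; there 17 of 23 dissociation genes were higher (median 0.84).

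The nuclear-encoded members other than Ndufa4l2 differed between the 2 subtypes by less than the size needed for a call. In the planned split the members had a median ratio, VSMC2-like to VSMC1-like, of -0.04 on the log2 scale, 1 member was called higher where 3.80% of all genes were, and 0 were called lower where 2.35% were. The call was lost, the gene falling below the minimum of 10 CPM, without doublet-marked cells, without the mostly doublet-marked subcluster, with unintegrated clustering and without library 4, and also under a minimum of 50 CPM. In the narrow split the median was 0.09, with 1 called higher (all genes 5.41%) and 0 lower (all genes 6.88%). That member was Ndufa4l2 in both. It passed the minimum, taken over the 2 groups summed, through its level in VSMC2-like cells. In the narrow split it likewise fell below the minimum without library 4, without the mostly doublet-marked subcluster or at 50 CPM. At any size, 27 of the 74 members were higher in all 6 libraries of the narrow split where 12.2% of all genes were, and 4 were lower in all 6 where 22.0% were. The summed share of the members was higher in narrow VSMC2-like cells of each library, by a median of 0.08 (0.01 to 0.19) on the log2 scale, while the median of all genes was -0.06. The other members lay between -0.25 and 0.14 in the planned split and between -0.47 and 0.40 in the narrow one. The ends of the narrow range were Ndufv3, a complex I subunit of the NADH-binding module, and Cox8a. Cox8a lay between 982 and 1332 CPM in narrow VSMC2-like cells and between 776 and 1037 CPM in VSMC1-like cells, higher in each library although the ranges overlapped.

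**Figure D3:**
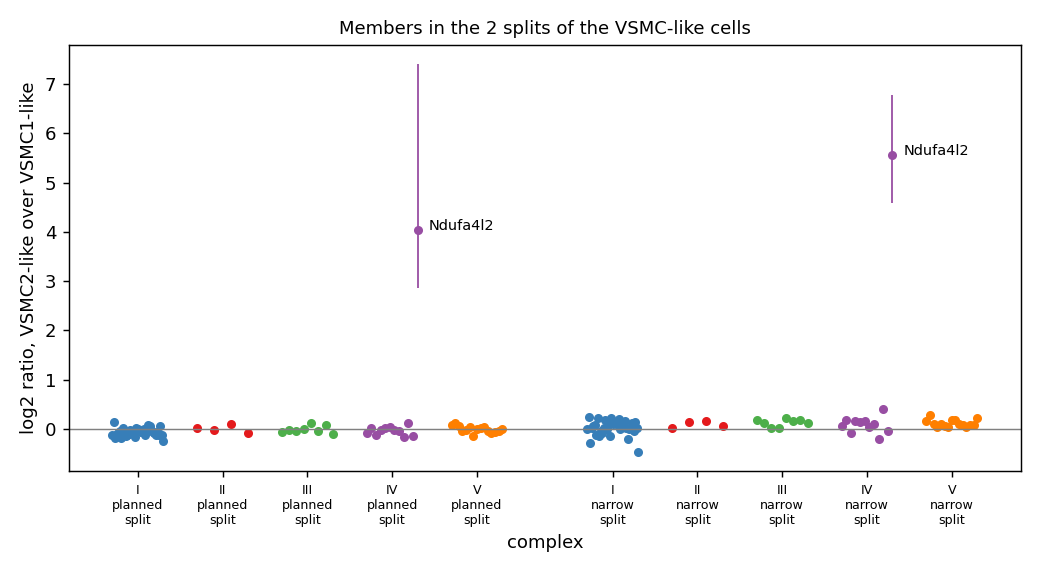
Median log2 ratio over 6 libraries, VSMC2-like over VSMC1-like (vertical axis), for each member by complex in the planned and the narrow split; lines give the range for Ndufa4l2. Ndufa4l2 lies at 4.03 and 5.56, and the other members lie between -0.47 and 0.40.

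The mitochondrially encoded subunits had a median log2 ratio of -0.31 in both splits, opposite in sign to the nuclear members of the narrow split. Their share of UMIs was 4.38% (3.86 to 5.16) in narrow VSMC1-like and 3.39% (2.76 to 4.70) in narrow VSMC2-like cells, so the ranges overlapped, but within each of the 6 libraries it was lower in VSMC2-like cells, by a median log2 ratio of -0.29. mt-Nd5, a complex I core subunit, was called lower in the narrow split at -0.58. Outside the members, Cox4i2 was called higher in narrow VSMC2-like cells at 0.93 (0.41 to 1.55), with 78.3 against 39.4 CPM. Atpif1, the inhibitor of ATP synthase, was called higher at 0.58.

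In the narrow split Ndufa4l2 had the highest log2 ratio of all 7685 genes tested, 5.56 (4.59 to 6.77), followed by the muscle phosphoglycerate mutase Pgam2 at 5.05. The minimum of 10 CPM applied to both groups summed. Ndufa4l2 passed it through VSMC2-like cells, so its rank depends on that filter and is a description. Narrow VSMC2-like cells of libraries 1 to 6 held 47.6, 52.9, 73.7, 86.8, 33.1 and 46.8 CPM. Narrow VSMC1-like cells held 0.603, 2.10, 1.51, 1.71, 1.31 and 0.307 CPM, the last from 2 UMIs, and the groups did not overlap. Summed over libraries these were 57.4 CPM (95% Poisson interval 53.4 to 61.5, 777 UMIs) and 1.25 CPM (0.984 to 1.57, 75 UMIs), intervals that cover counting error only. Ndufa4l2 was found in 11.8% of narrow VSMC2-like cells, 7.13% after thinning, and in 0.713% and 0.359% of narrow VSMC1-like cells. The VSMC1-like shares were lower than the leukocyte-like ones but within their 95% intervals (0.642 to 3.25% and, after thinning, 0.289 to 2.69%).

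Narrow VSMC2-like cells carried a doublet mark more often (11.9%) than VSMC1-like cells (2.68%), and fibroblast-like cells are rich in Ndufa4l2, so finer subclusters were examined. Of the 863 Ndufa4l2 UMIs in VSMC-like cells, 415 lay in subcluster 9, which had 353 cells, 51.8% of them marked, and 15825 CPM of summed fibroblast markers. Another 78 lay in subcluster 4, which had 896 cells, 84.6% of them narrow VSMC2-like. There 24 cells held Ndufa4l2, at 11.6 CPM (1.25 to 42.8 over libraries) and 3.79 UMIs per 1000 fibroblast-marker UMIs. A further 255 lay in subcluster 7, which had 574 cells led by Olfr558, Acta1, Pgam2 and Pln, of which 0.174% were marked. Fibroblast markers there summed to 1187 CPM, the lowest of the subclusters apart from one of 17 cells, and 43513 CPM in fibroblast-like cells. Ndufa4l2 in subcluster 7 was at 148, 52.2, 34.6, 48.5, 36.3 and 79.6 CPM in libraries 1 to 6, with library 1 the highest. Per 1000 fibroblast-marker UMIs, subcluster 7 held 47.3 Ndufa4l2 UMIs, subcluster 9 held 8.26 and fibroblast-like cells 3.16. Without subcluster 9 the narrow log2 ratio was 4.92, with the gene then below the minimum of 10 CPM. Without doublet-marked cells the ratio was 5.88. The nuclear-encoded share summed over libraries was 2.55% in subcluster 7, 1.70% in subcluster 2 and 1.65% in subcluster 3. Subcluster 3 had 6.93% mitochondrial UMIs. In libraries 3 and 5 subcluster 6 exceeded subcluster 7, and in library 5 subclusters 0 and 4 did so too.

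**Figure D4:**
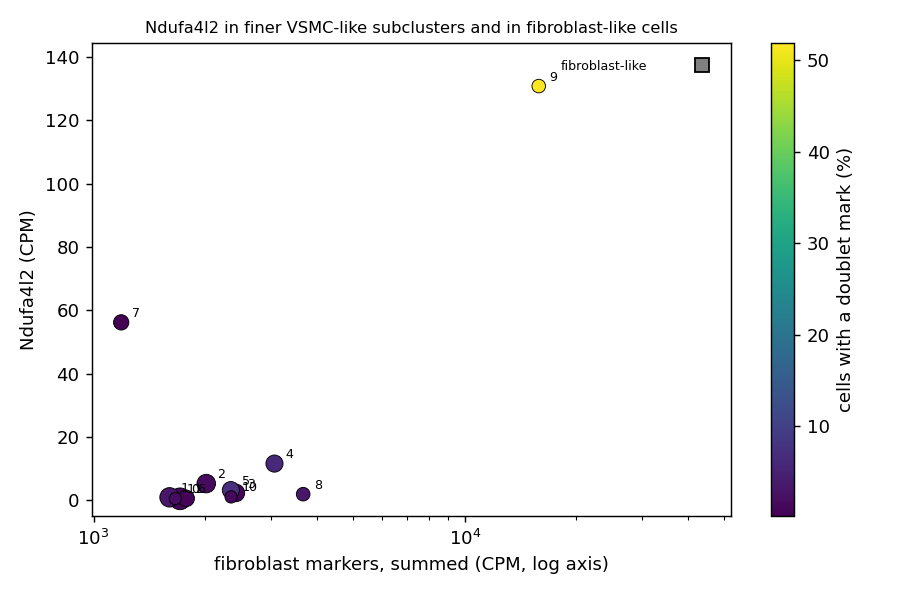
Ndufa4l2 (CPM, vertical axis) against summed fibroblast markers (CPM, log axis) in finer VSMC-like subclusters of 50 or more cells and in fibroblast-like cells (grey square); point area grows with cell number and colour gives the percentage of doublet-marked cells. Subcluster 7 combines 56.2 CPM of Ndufa4l2 with the lowest fibroblast markers shown, 1187 CPM.

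Apart from Ndufa4l2, tissue isoforms of complex IV held under 10% of their pair in the 4 classes when libraries were summed. In single libraries Cox6a2 reached 13.9% in leukocyte-like cells of library 6 and 10.6% in VSMC-like cells of library 4, which held 9 of 17 cardiomyocyte-like cells, and Cox4i2 reached 10.4% in fibroblast-like cells of library 1. Cox4i2 made up 4.80% of Cox4 UMIs in VSMC-like and 8.19% in fibroblast-like cells. The 3 genes for the c subunit of ATP synthase, whose mature proteins are the same, were used in near-even parts: Atp5g1, Atp5g2 and Atp5g3 gave 31.3, 40.4 and 28.3% in VSMC-like and 34.8, 37.7 and 27.6% in fibroblast-like cells. Atp5g2 reached 50.2% in endothelial-like and in leukocyte-like cells.

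**Figure D5:**
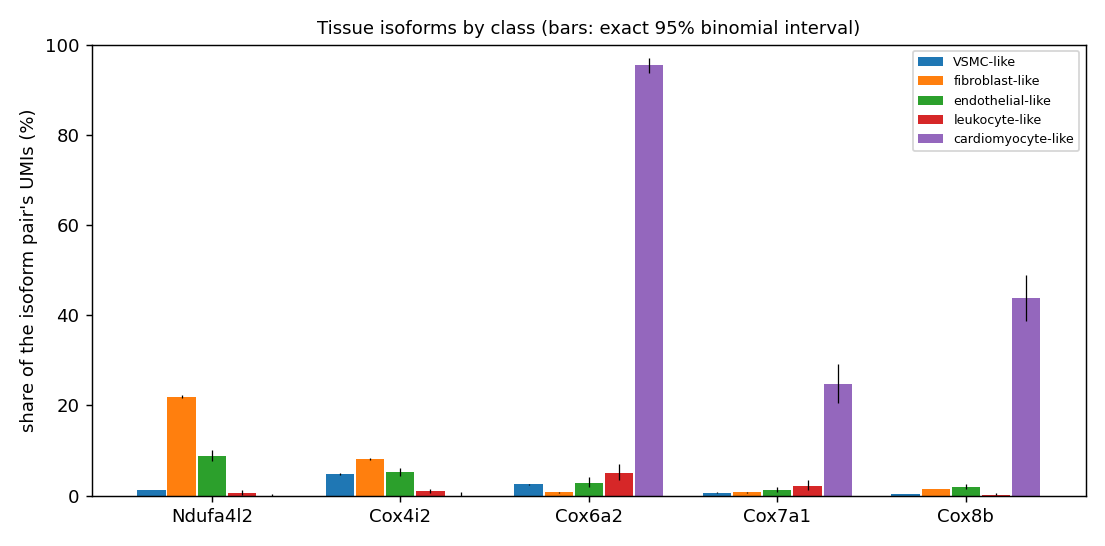
Share of each isoform pair's UMIs (%, vertical axis) held by the tissue isoform in the 4 classes and in 17 cardiomyocyte-like cells; error bars are exact 95% binomial intervals for counting error. Ndufa4l2 reaches 21.9% in fibroblast-like cells, and Cox6a2 reaches 95.6% in the cardiomyocyte-like cells.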

How the data were processed

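The authors deposited 1 matrix of UMI counts per gene and cell (10x Genomics 3' chemistry, mm10; Cell Ranger 6 per the labels, 4.0.0 in the matrix header), without normalization. Members and lists were chosen with earlier results of these data known. Cells were kept between 1000 and 5000 genes and between 1500 and 25000 UMIs, with mitochondrial UMIs below 20%. Seurat 5.3.0 (R 4.3.3; SCTransform on 3000 variable genes, without glmGamPoi, and RPCA integration of libraries over 30 components) clustered cells at a resolution of 0.25, leaving out the members, and VSMC-like cells again at 0.05. Clusters were named from fixed marker lists with at least 3 markers passing. Scrublet marked 0.0891 to 1.92% of cells per library, so the top 5% of scores per library were used as doublet marks.

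UMIs were summed per class and library, scaled to CPM, and compared as log2 ratios for genes at 10 CPM or more. Before each ratio 0.5 UMI was added, scaled to the total of each group. The addition makes ratios of low genes smaller in size. A class without a UMI of a gene can still give a large ratio, above all a small class. Ratios were also computed on simulated sums with known changes. These held counting noise only and no variation between libraries or cells, so they cannot test the call rule against such variation. The rule for named genes took isoform pairs, Ndufa4l2, called members (of more than 12, the 6 largest each way), the 2 highest and 2 lowest members of each complex in VSMC-like cells, the 10 genes most like Ndufa4l2, and up to 4 called genes per list. The text gives part of these, and other genes were chosen after their values were seen. Alternatives used scanpy 1.11.5 and edgeR 4.0.16 (TMM scaling only). A planned comparison of Rgs5-high cells is not given, since no planned subcluster met its naming rule. Some items are not reported here.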

Additional observations from a re-analysis of the deposited data

Results flagged for a closer look

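Within the VSMC-like class, 17 cells formed a cardiomyocyte-like subcluster that enters no comparison of its own. They came from libraries 3, 4 and 5 (6, 9 and 2 cells) and had 9.88% mitochondrial UMIs. Their values were picked out because transcripts that failed the minimum for membership were abundant there. Cox6a2, the heart and skeletal muscle form of Cox6a, gave 95.6% of the Cox6a UMIs (603 of 631), and 17 of 17 cells held it. Cox8b gave 43.8% of its pair (167 of 381) and Cox7a1 24.7% (102 of 413). These cells held 97.3% of the 620 Cox6a2 UMIs of the VSMC-like class. The members took 9.32% of their UMIs. Ndufa4l2 had 0 UMIs in these cells, which with a 95% Poisson interval allows up to 26.7 CPM.

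The unnamed cluster of 104 cells, which also enters no comparison, had a member share of 1.96%. With no library tied to a mouse, single libraries were not examined for outlying values.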

How the results depend on the processing

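No paired analysis was possible because no barcode ending is tied to a mouse, so the replicate numbers shared by CTL and LDS could not be used. Classes of cells were compared within each library throughout. Of the values that answer a comparison, 432 stayed within their limits and 29 moved. TMM scaling, which moved the median of all genes to 0.11 (VSMC-like over fibroblast-like) and 0.31 (over endothelial-like), gave member medians of 0.60 and 0.65, and over endothelial-like cells 50 higher and 0 lower, where 31.5 and 10.1% of all genes were. Over endothelial-like cells the number called lower was 2 in libraries 1, 3, 4 and 5, 3 in libraries 2 and 6, and 1 to 2 leaving out 1 library at a time (2 without library 6). The median log2 ratio of Ndufa4l2 over endothelial-like cells went from -2.07 to 2.06 in libraries 2 and 6 alone. None of the 10 endothelial-like cells of library 6 held a UMI of Ndufa4l2. The ratio of library 6 therefore rests on the UMI fraction added before each ratio. In library 2 the gene was found in 8.57% of endothelial-like and 4.11% of VSMC-like cells. The value of 2.06 thus does not show a change of direction. A single sum over all libraries gave a member median of 0.59 over leukocyte-like cells.

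In the planned VSMC split, the member median of -0.04 became 0.078 when cells were clustered on unintegrated log-normalized values. It was 0.085 in the narrow split, so the sign of this small value changed with the clustering. The number called higher became 0 with that clustering, without doublet-marked cells, at 50 CPM or more, without the mostly doublet-marked subcluster, and without library 4 (0 to 1 leaving out 1 library at a time). In the narrow split it became 0 at 50 CPM or more, without the mostly doublet-marked subcluster and without library 4 (0 to 1). Ndufa4l2, the member concerned, fell below the CPM minimum there and kept its direction. Its share of the pair in planned VSMC2-like cells, 2.72%, became 5.71% with log-normalized counts, 6.82% in the narrow split and 1.43% without the mostly doublet-marked subcluster. That of Cox4i2 became 6.44 and 7.49% in the first 2 of these, and that of Cox8b in planned VSMC1-like cells 0.0876%. Thinning to 3000 UMIs brought Ndufa4l2-positive shares to 1.51% in VSMC-like, 27.0% in fibroblast-like, 0.255 and 2.87% in planned VSMC1-like and VSMC2-like, and 0.359 and 7.13% in narrow VSMC1-like and VSMC2-like cells. The cause of these changes was not tested.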

Other observations

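Member shares were also taken in a pair of smaller VSMC-like subclusters of the narrow split. The Rgs5-high subcluster (240 cells) stood at a median of 2.0% (1.77 to 2.58), below the whole VSMC-like class in each of the 6 libraries, and the Cd74/H2-Aa subcluster (382 cells) at 2.25% (2.07 to 2.59), ranges that overlapped. Ndufa4l2, a pericyte-associated transcript by its list here, was found in 2 of the 240 Rgs5-high cells. That subcluster was labelled by its Rgs5 level alone, and the other naming markers, Higd1b and Vtn, were at 0 CPM in it.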
